A study of Danio rerio with 16 samples.

Results

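The vitellogenin genes of zebrafish, which code for yolk protein precursors, were followed across embryo, larva and adult libraries. They were taken as the genes whose name begins with vtg, together with si:rp71-23d18.1, which the 24 hpf (hours post fertilization) files and a table of gene names call vtg6. By this rule 7 gene IDs were found among 32440 listed in any library: vtg1, vtg2, vtg3, vtg4, vtg5, vtg7 and si:rp71-23d18.1. Only 4 of them, vtg2, vtg3, vtg4 and si:rp71-23d18.1, are listed in all libraries, because the 24 hpf files use another gene annotation. The other 3, vtg1, vtg5 and vtg7, have values in the pool, larva, head and tail and none at 24 hpf.

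Vitellogenins are the large lipid- and phosphate-carrying precursors of egg yolk. In egg-laying vertebrates the liver of a mature female makes them when oestradiol acts through oestrogen receptors, the blood carries them to the ovary, and growing oocytes take them up by receptors of the low-density lipoprotein receptor family and cut them with cathepsins into the yolk proteins. Embryos and larvae then live on that stored protein, which the mother made.

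All fish were wild type of the AB strain, and mRNA libraries were made from TRIzol-extracted total RNA with the TruSeq RNA kit. Whole embryos at 24 hpf were sequenced as 3 biological samples. A single library was made from each of the other 4 sources, which were pooled whole embryos labelled 16-36 hpf, whole 5-day larvae, an entire head and an entire tail of adults. Another label of the pool gives 16 somites to 24 hpf. Neither the sex of the adults, nor the number of fish, nor where head and tail were parted, is given in the labels. Levels are given as CPM or as the authors' FPKM, which also divides by gene length. For CPM each count was divided by its library's total over the genes listed in all libraries, after the scaling used for the test. That total leaves out the counts of vtg1, vtg5 and vtg7. Counts on genes came to 40899061 to 44962951 in the 24 hpf libraries and 8017208 to 11045403 in the other 4, where there is no replicate.

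Zebrafish vitellogenins are grouped into type I (vtg1, vtg4, vtg5, vtg6 and vtg7), type II (vtg2) and type III (vtg3), of which vtg3 lacks the phosphate-rich phosvitin stretch. On the Zv9 build, vtg3 (ENSDARG00000016448) lies alone on chromosome 11, from 7505777 to 7526742. The other 6 form a cluster on chromosome 22. In the files of the pool, larva, head and tail, vtg1 (ENSDARG00000092233) runs from 25203434 to 25210659, vtg5 (ENSDARG00000092126) from 25223570 to 25230256, and si:rp71-23d18.1 (ENSDARG00000016825) from 25283865 to 25290536. Next along the cluster are vtg7 (ENSDARG00000092419), from 25323696 to 25330520, and vtg2 (ENSDARG00000055809), from 25342159 to 25353294. The ID ENSDARG00000078429 is drawn from 25203747 to 25330501, a span of 126.8 kb that contains or overlaps vtg1, vtg5, si:rp71-23d18.1 and vtg7. It is named vtg4 in those 4 files and vtg1 in the 24 hpf files, and is called vtg4 here. Reads in the intervals of vtg1, vtg5 and vtg7 could therefore be counted to this ID at 24 hpf, where those genes are not listed separately.

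**Figure D1:**
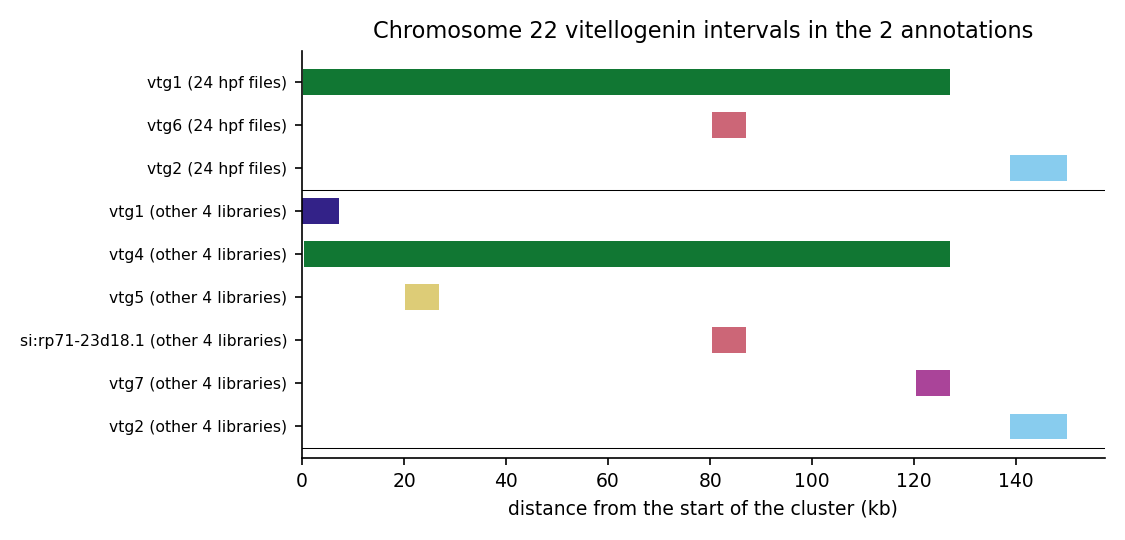
Intervals of the 6 vitellogenin IDs on chromosome 22, drawn to scale as distance in kb from the start of the cluster, with 1 bar per ID and the name each file gives it; the upper block is the annotation of the 24 hpf files and the lower block that of the other 4 libraries. The green ID spans 126.9 kb in the first and 126.8 kb in the second, and vtg1, vtg5 and vtg7 are drawn only in the second.

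In embryos the vitellogenin genes had few counts, from 0 to 151 per gene and library. At 24 hpf vtg3 had 12, 9 and 7 counts in the 3 samples, which is 0.261 ± 0.0698 CPM (mean ± SD, n = 3). The type II gene vtg2 had 7, 4 and 12 counts, or 0.215 ± 0.115 CPM (SD, n = 3). For si:rp71-23d18.1 the counts were 0, 2 and 0. Each of these 3 genes thus held at most 12 counts in any 24 hpf library.

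The vtg4 ID stood higher and was uneven between the replicates, at 3.83, 4.17 and 0.508 CPM from 137, 151 and 18 counts. Sample 3 was far below samples 1 and 2. In the authors' FPKM, which allows genes to be compared per length, the same ID had 0.630, 0.655 and 0.0823, against 0.0430 ± 0.0116 (SD, n = 3) for vtg3 and 0.0316 ± 0.0135 for vtg2. This ID held 87.8% and 91.0% of the counts of the 4 shared genes in samples 1 and 2 and 48.6% in sample 3. Reads without a unique alignment, which the counting drops, made up 21.1%, 14.2% and 27.6% of the 3 libraries, and their part in that difference was not tested. Sample 3 was not lowest for vtg4 alone. The apolipoprotein B gene apobl had 217638, 237392 and 81701 counts in the 3 samples, and the plasma protein gene tfa 89696, 97796 and 45240. It was highest for vtg2 and for the cathepsin gene ctsl1a (59235, 59811 and 70711 counts). Whether these differences are linked was not tested.

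The embryo pool held 37 vitellogenin counts in all, of which 30 fell on vtg7, 4 on vtg2 and 3 on vtg1. The other 4 genes had 0 counts there, where 3 counts, the upper limit that a 0 allows, would be 0.273 CPM. The vtg7 gene therefore made up 81.1% of the pool's vitellogenin counts (exact 95% interval 64.8 to 92.0%, for counting error only). Per length the order was the same, with vtg7 at 0.657 FPKM (authors' interval 0.218 to 1.10), vtg2 at 0.163 (0 to 0.346) and vtg1 at 0.0633 (0 to 0.145). The intervals of vtg2 and vtg1 overlap, and that of vtg2 also overlaps that of vtg7.

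Against 24 hpf, none of the 4 shared genes passed the test in the pool, where 6.56% of the 21128 genes tested were called higher and 6.05% lower. Calls were made with the quasi-likelihood test of edgeR at a Benjamini-Hochberg adjusted p under 0.05, adjusted over all tested genes. Its p-values rest on the spread between the 3 samples at 24 hpf, with each gene's spread drawn toward a trend over all tested genes. Small p-values thus lean on spread borrowed from other genes, and the single libraries are taken to vary as the 24 hpf samples do. Among the 4, the lowest unadjusted p-values of this edgeR test were those of vtg3 (0.0199) and vtg4 (0.0286), both with a lower fitted level in the pool. For vtg3 the 24 hpf mean of 0.261 CPM is below what 3 counts would be in the pool, 0.273 CPM, so its 0 counts there set no fold (adjusted p = 0.0903). For vtg4, 0 counts in the pool set a level at least 10.4-fold lower than the 306 counts of the 24 hpf samples (adjusted p = 0.112). Those 306 counts could include reads in the intervals of vtg1, vtg5 and vtg7, which are listed separately in the pool. DESeq2 called vtg4 lower (adjusted p = 0.0327), as did edgeR without 24 hpf sample 3 (adjusted p = 9.14e-04). The counts of vtg4 were also summed with those of the 4 other vitellogenin genes in its span, leaving out genes of other names there, which gave 3.83, 4.22 and 0.508 CPM at 24 hpf and 3.00 CPM in the pool. That sum was chosen after its parts were seen, and its change was 0.07 ± 1.01 on the log2 scale (SE, adjusted p = 0.973).

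At 5 days vtg1 and vtg7 led. The larva held 126 vitellogenin counts, of which vtg1 had 52, vtg7 47, vtg2 and si:rp71-23d18.1 7 each, vtg3 5, and vtg4 and vtg5 4 each. In FPKM vtg1 stood at 3.54 (authors' interval 2.45 to 4.64) and vtg7 at 1.46 (0.746 to 2.17), which do not overlap. By counts they are not told apart, with shares of 41.3% (exact interval 32.6 to 50.4%) and 37.3% (28.9 to 46.4%). Their genomic spans are close, at 7.2 kb for vtg1 and 6.8 kb for vtg7. Why FPKM separates these genes and counts do not was not tested, so no order between them is drawn. The remaining 5 lay between 0.0954 and 0.223 FPKM with intervals that all overlap one another, so no order among them can be read.

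Compared with the pool, which shares the larva's annotation, vtg1 was 19.3-fold higher in the larva in CPM (95% counting interval 6.25 to 96.6), with 52 counts against 3. For vtg7 the ratio was 1.74 (1.08 to 2.86), and for vtg2 it was 1.95 (0.495 to 9.07), an interval that includes no difference. All 7 together were 3.79-fold higher (2.61 to 5.63). With 1 library each, these ratios compare the libraries and carry no replicate error.

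Against 24 hpf, 1 of the 4 shared genes was called higher in the larva and 0 lower, where 26.5% of all tested genes were called higher and 23.9% lower. This was si:rp71-23d18.1, with 7 counts against 2 over the 24 hpf samples, a ratio of 38.1 in CPM with a counting interval of 7.25 to 375 (adjusted p = 0.00789). The change of vtg2 was 1.70 ± 0.75 on the log2 scale (SE, adjusted p = 0.0978) and that of vtg3 was 0.94 ± 0.62 (adjusted p = 0.280). For vtg4 it was -2.79 ± 1.51 (adjusted p = 0.162). Leaving out 24 hpf sample 3 brought 2 more past the threshold, vtg2 at 1.99 (adjusted p = 0.0165) and vtg4 at -3.46 (adjusted p = 4.64e-04). DESeq2 and scaling by library totals alone also called vtg2 (adjusted p = 0.0328 and 0.0382). Summing the cluster turned the direction of vtg4, with 11.5 CPM in the larva and a change of 2.01 ± 0.85 (adjusted p = 0.0869). That sum includes the IDs of vtg1, vtg5 and vtg7 in the larva but not at 24 hpf. At 24 hpf reads in those intervals could be counted to vtg4, so the change of vtg4 alone may compare unlike sets of reads. All 4 genes had 7 counts or fewer in the larva.

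In the adult libraries the vitellogenins were among the most abundant messages. Together they took 2.33% of all counts on genes in the head and 6.50% in the tail, from 187075 and 544307 counts. In whole body parts, a difference in the number of cells of a type and one in RNA per cell cannot be told apart. In the tail vtg1 had more counts than any other gene, 280531, and vtg2 came next with 124956. By count, vtg5 ranked 6, vtg4 7, vtg7 16, si:rp71-23d18.1 23 and vtg3 49 in the tail. In the head vtg1 ranked 3 with 99639 counts and vtg2 9 with 44788, while vtg3 ranked lowest of the 7 at 228 with 4292. These ranks are of counts and favour long transcripts.

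Per length, only vtg2 and vtg3 can be ranked in the adults. Cufflinks gave no estimate for vtg1, vtg4, vtg5, vtg7 and si:rp71-23d18.1 in head and tail, marked them as having too much data, and listed them at 0 FPKM, although their counts there ran from 6540 to 280531. In the tail vtg2 reached 3403 FPKM, rank 2 of 32273 genes with an estimate, and in the head 1122 FPKM, rank 29 of 32280. The type III gene vtg3 stood at 328 FPKM in the tail and 103 in the head. The vtg2 gene thus exceeded vtg3 by 10.4-fold in the tail and 10.9-fold in the head per length. In the larva that ratio was 1.52 and in the 24 hpf samples it was 0.551, 0.423 and 1.53, all from 12 counts or fewer per gene.

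All 4 shared genes were called higher than 24 hpf in the head, where 32.2% of tested genes were called higher and 30.4% lower, and all 4 in the tail, where the shares were 25.6% and 27.5%. Ranked by log2 change among all 21128 tested genes, si:rp71-23d18.1 was 2, vtg2 5, vtg3 29 and vtg4 93 in the tail, and 8, 10, 84 and 272 in the head. The fitted change of si:rp71-23d18.1 rests on 2 counts at 24 hpf. In the tail vtg2 rose from 0.215 to 14052 CPM, a log2 change of 15.96 ± 0.51 (SE, adjusted p = 6.63e-06). In the head vtg2 stood at 4696 CPM, a change of 14.38 ± 0.50 (adjusted p = 1.05e-05). The tail level of vtg3 was 1485 CPM, a change of 12.44 ± 0.35 (adjusted p = 6.63e-06), and its head level 450.0 CPM, a change of 10.72 ± 0.34 (adjusted p = 1.05e-05). Head and tail are 1 library each, so these adult levels have no spread of their own.

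For si:rp71-23d18.1 the 24 hpf level rests on 2 counts, so its ratio is given with a counting interval. It stood at 2499.6 CPM in the tail, 134201-fold over 24 hpf (37146 to 1108210, adjusted p = 6.63e-06), and at 686 CPM in the head, 36816-fold over 24 hpf (10188 to 304066, adjusted p = 1.20e-05). The vtg4 ID showed the smallest difference of the 4, from 2.84 ± 2.02 CPM (SD, n = 3) to 4133 in the tail, a log2 change of 10.51 ± 0.92 (SE, adjusted p = 1.80e-04). In the head it stood at 1104 CPM, a change of 8.60 ± 0.86 (adjusted p = 2.58e-04). The summed cluster rose by 13.96 ± 1.04 in the tail (adjusted p = 9.64e-05) and by 12.30 ± 0.99 in the head (adjusted p = 1.16e-04). It includes the IDs of vtg1, vtg5 and vtg7 in the adult parts but not at 24 hpf, so these changes compare unlike sets of IDs. At 24 hpf reads in those intervals could be counted to vtg4, so the changes of vtg4 alone may compare unlike sets of reads. All 4 genes were called higher in both adult parts in each alternative fit that was run.

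The 3 genes without a 24 hpf value stood as high. The vtg1 gene reached 10447 CPM in the head and 31546 in the tail, vtg5 1504 and 4404, and vtg7 729 and 3088. They carried 64.6% of the vitellogenin counts in the head and 63.8% in the tail, none of which enters the test against 24 hpf. Against the pool, vtg1 was 115570-fold higher in the tail (95% counting interval 39546 to 560414, from 3 counts in the pool). For vtg7, whose pool level was the highest of the 7, the tail ratio was 1131 (792 to 1677) and the head ratio 267 (187 to 396). The vtg5 gene was at least 16135-fold higher in the tail than the limit of 3 counts in the pool.

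**Figure D2:**
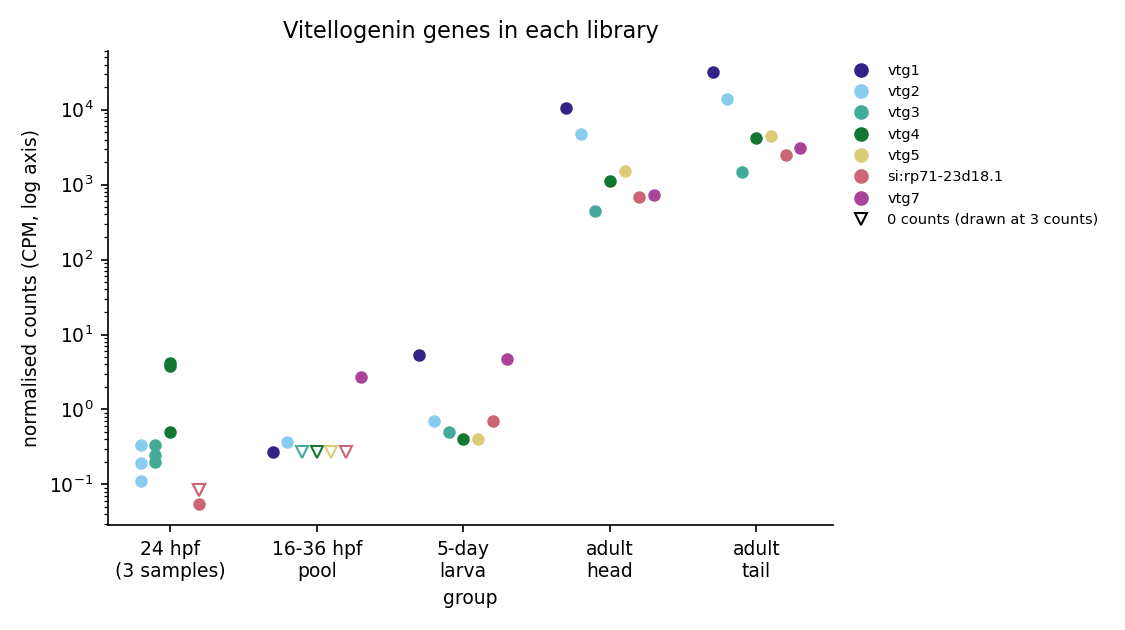
CPM on a log axis for each vitellogenin gene (colours) in each library, with the 3 samples at 24 hpf drawn separately; open triangles mark 0 counts and are drawn at the level of 3 counts in that library. The adult points start at 450.0 CPM, all embryo and larva points lie at 5.27 CPM or below, and vtg1, vtg5 and vtg7 have no point at 24 hpf.

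Within the adults the make-up of the vitellogenin counts was close in head and tail. The vtg1 gene took 53.3% in the head and 51.5% in the tail, vtg2 23.9% and 23.0%, and vtg5 7.67% and 7.20%. The vtg4 gene took 5.63% and 6.75%, and vtg3 2.29% and 2.43%. The largest relative shift was that of vtg7, from 3.72% (95% interval 3.63 to 3.80%) in the head to 5.05% (4.99 to 5.10%) in the tail. For si:rp71-23d18.1 the shares were 3.50% and 4.08%. The counting intervals of the 2 libraries do not overlap for any of the 7, and without replicates the spread between samples is unknown. These shares are of counts and are not per length. They differ from the larva, where vtg1 held 41.3% (32.6 to 50.4%) and vtg7 37.3% (28.9 to 46.4%).

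**Figure D3:**
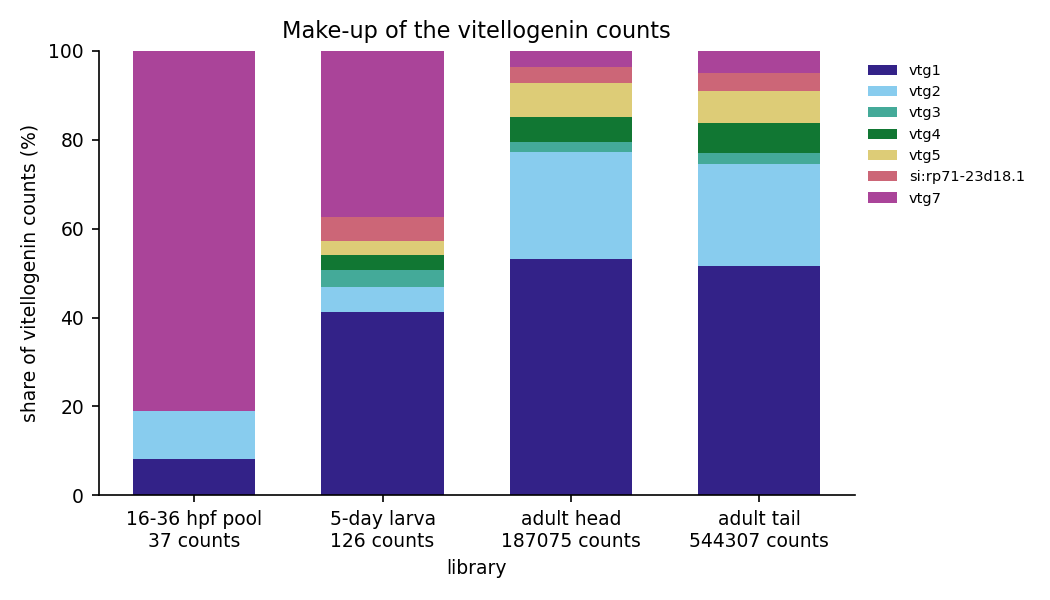
Share of each vitellogenin gene in the vitellogenin counts of a library (stacked bars, per cent), with the number of counts behind each bar under it. The vtg7 gene fills 81.1% of the pool's bar, which rests on 37 counts, and the head and tail bars, led by vtg1 at 53.3% and 51.5%, look nearly alike.

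Every vitellogenin gene was higher in the tail than in the head, by a similar factor. The ratio of CPM was 2.93 for vtg5 (95% counting interval 2.87 to 2.99), 2.99 for vtg2 (2.96 to 3.02) and 3.02 for vtg1 (3.00 to 3.04). It was 3.30 for vtg3 (3.19 to 3.42), 3.65 for si:rp71-23d18.1 (3.55 to 3.75) and 3.74 for vtg4 (3.66 to 3.83). The vtg7 gene had the highest, 4.24 (4.13 to 4.35). The intervals of vtg5, vtg2 and vtg1 overlap their neighbours in this order, as do those of si:rp71-23d18.1 and vtg4, while vtg3 and vtg7 stand apart from theirs beyond counting error. In all, 7 of 7 were at least 2-fold higher in the tail, as were 30% of the 18532 genes with 30 or more counts in the pair. Dividing by plain totals over all listed genes, without the scaling factors of the test, moved the 7 ratios to between 2.61 and 3.78. The deposited FPKM gave 3.03 for vtg2 and 3.19 for vtg3. Reads without a unique alignment made up 30.2% of the head library and 39.6% of the tail library, and ambiguous reads 1.08% and 1.90%, and their part in these ratios was not tested.

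The tissues that make, receive and store yolk were looked up in the same libraries through lists of marker genes. Liver and plasma protein genes summed to 5091 CPM in the head and 12057 in the tail, a ratio of 2.37, and 0 of the 38 were at 0 in either. In the libraries with few vitellogenin counts the list summed to 5926 to 10076 CPM over the 24 hpf samples, 6220 in the pool and 7227 in the larva, all above the head. The 24 hpf sums include tfa at a mean of 2162 CPM and fetub at 1904 CPM. The tfa gene is also on the marker list of the yolk syncytial layer, the embryonic tissue that digests yolk. These sums are therefore no measure of liver RNA alone, and which tissue carries them was not tested. The median tail to head ratio over these 38 genes was 2.5, with quartiles 2.00 and 2.83, and 6 of them fell within the range of the vitellogenins, 2.93 to 4.24, with 30 below it and 2 above. The liver fatty acid binding protein gene fabp10a, a defining hepatocyte marker, stood at 201 CPM in the head and 526 in the tail, a ratio of 2.62 (95% counting interval 2.49 to 2.77). It had risen to 108 CPM by the larva from 0.398 ± 0.321 at 24 hpf (SD, n = 3; log2 change 8.06, adjusted p = 2.93e-04), a stage at which the vitellogenins stayed at 5.27 CPM or below. The ratio was 3.05 for hpda, an enzyme of tyrosine breakdown, and 3.62 for AHSG, a fetuin of plasma. It was 2.63 for tfa, below the range of the vitellogenins, and 4.36 for fetub, above it. The list genes rbp4 and fabp1a were lower in the tail than in the head, with ratios of 0.554 and 0.0141. The gene shbg, the sex hormone carrier of plasma, is on the oestrogen receptor and steroid synthesis list and had a ratio of 3.04. Against 24 hpf, 13 of the 37 tested liver genes were called higher in the head, a share of 35.1% near the 32.2% of all genes, and 9 lower. In the larva 12 were higher, or 32.4% against 26.5%, and 1 lower. In the tail 18 were higher, or 48.6% against 25.6%, and 3 lower, with a median log2 change of 1.08 against -0.11 over all tested genes. The part of liver RNA in the vitellogenin levels of head and tail was not tested.

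Oocyte and egg coat genes were further apart between the body parts than the vitellogenins were. The oocyte and ovary list summed to 119 CPM in the head and 10824 in the tail, a ratio of 91.3. The egg coat list summed to 8.07 and 6787, a ratio of 841. Most egg coat genes, among them zp3b, zp2l1 and zpcx, are also on the oocyte list, so these lists are not independent. Among the 41 oocyte genes with 30 or more counts in the pair, 0 had a ratio within the range of the vitellogenins, 39 lay above it and 2 below. Those 2, H1F0 and TDRD7 (1 of 2), had 643 and 243 counts in the head, against at most 35 for each of the 39. The sums of this list are therefore no measure of oocyte RNA alone. Against 24 hpf, 40 of 43 tested oocyte genes were called higher and 1 lower in the tail, with 4 and 16 in the head, against 25.6% and 27.5% of all genes in the tail and 32.2% and 30.4% in the head. All 19 tested egg coat genes were higher in the tail, with 1 higher and 6 lower in the head. The oocyte factor gdf9 stood at 0.210 CPM in the head and 43.0 in the tail, and zar1, needed for the oocyte's maternal messages, at 0.419 and 531. For the egg coat gene zp3b the values were 1.68 and 958 CPM. The head library held 19615 CPM of vitellogenin and 119 CPM over the oocyte list, and the tail library 61208 and 10824 CPM. At 24 hpf the oocyte list summed to 521 to 788 CPM, although gdf9, zar1 and zp3b had means of 0.206, 0.958 and 1.87 CPM. That embryo sum is therefore no yardstick for oocyte RNA in the head. The part of these tissues in the vitellogenin levels was not tested. Testis markers summed to 81.8 CPM in the head and 203 in the tail, where 10 of 18 tested (55.6%, against 25.6% of all genes) were called higher and 2 lower than 24 hpf. The list holds piwil2, a germ cell gene that oocytes express too. It also holds amh, dmrt1 and insl3, which were higher in the tail than in the head, and CCDC39, which was lower. Some others had tail to head ratios near 1, with 1.13 for TEKT1, 1.07 for TEKT4, 1.14 for odf3b and 0.826 for spag6. Higher in the tail were also sycp1, with a ratio of 5.27, and ropn1l, with 2.65. The gene ODF3L2 (1 of 2) had 0 counts in the head and 55 in the tail. Over the 16 testis list genes with 30 or more counts in the pair the median ratio was 2.05. The tissue behind these calls was not tested.

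**Figure D4:**
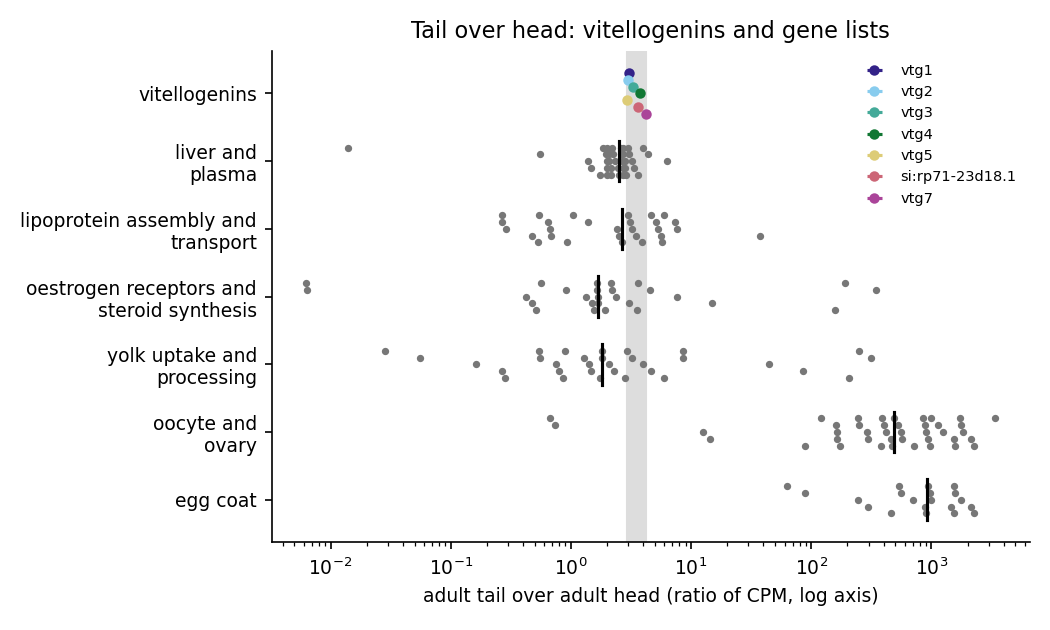
Ratio of CPM in the adult tail over the adult head on a log axis, 1 library each, for the 7 vitellogenins (coloured points, whose 95% counting intervals are narrower than the points) and for genes of 6 lists (grey points, black bar at the median). The grey band is the range of the vitellogenins, 2.93 to 4.24; the liver list has its median at 2.5, the oocyte list at 486 and the egg coat list at 915.

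Among regulators and carriers upstream of yolk, the oestrogen receptors were higher in both adult libraries. The receptor gene esr1, through which oestradiol turns on vitellogenin in fish liver, rose from 0.530 ± 0.106 CPM at 24 hpf (SD, n = 3) to 8.81 in the head and 21.1 in the tail. Its log2 changes were 4.04 (adjusted p = 2.67e-04) and 5.30 (adjusted p = 1.05e-04), although the 24 hpf files give this ID the name akap12, so its interval may differ between files. Its tail to head ratio was 2.40 (95% counting interval 1.85 to 3.14). The second receptor gene esr2a stood at 6.29 CPM in the head and 13.8 in the tail, and esr2b at 18.14 and 16.5, with a ratio of 0.911 (0.726 to 1.14) that includes no difference. All 3 receptor genes passed the test in both adult parts. The larva did not differ at the threshold for any of them, with log2 changes from 0.03 for esr2a to 0.93 for esr2b.

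Of 34 tested genes on the oestrogen receptor and steroid synthesis list, 16 were called higher in the head, or 47.1% against 32.2% of all genes, and 9 lower. In the tail 19 were higher, or 55.9% against 25.6%, and 4 lower. The median log2 change was 1.92 in the head and 2.75 in the tail, against -0.01 and -0.11 over all tested genes. The ovarian aromatase cyp19a1a, which makes oestradiol, stood at 0.419 CPM in the head and 2.47 in the tail. It was called higher than 24 hpf in the tail (log2 change 5.84, adjusted p = 0.00283) but not in the head (3.30, adjusted p = 0.0671). The list's other aromatase gene, cyp19a1b, ran the other way, with 1798 counts in the head and 10 in the tail. Of 27 tested hepatic regulators, 8 were called higher and 7 lower in the head, or 29.6% and 25.9% against 32.2% and 30.4% of all genes, and 5 higher and 7 lower in the tail, or 18.5% and 25.9% against 25.6% and 27.5%. These shares were near those of all genes or below them. The bile acid receptor gene nr1h4 rose in both parts, with log2 changes of 5.18 in the tail (adjusted p = 7.08e-04) and 2.28 in the head (adjusted p = 0.0437). The forkhead genes foxa1 and foxa2 fell in both parts, with log2 changes of -2.77 and -2.87 in the tail (adjusted p = 8.11e-04 and 0.00111), and cebpa changed by -0.02 in the tail (adjusted p = 0.965).

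Receptor genes of the low-density lipoprotein receptor family differed in direction between tail and head. The lrp13 gene, so called in a table of gene names, rose from 0.885 ± 0.470 CPM at 24 hpf (SD, n = 3) to 1192 in the tail (log2 change 10.39, adjusted p = 1.60e-05) and 5.77 in the head. The vldlr gene, whose product binds vitellogenin in many egg-laying vertebrates, went from 31.8 ± 2.86 to 547 CPM in the tail (log2 change 4.10, adjusted p = 3.71e-05) and 64.2 in the head (1.01, adjusted p = 0.0102). The tail to head ratios of these receptors, 207 and 8.52, lie above those of all 7 vitellogenins. The family members ldlr and LRP8, the second listed in capitals, were lower in the tail than in the head, with ratios of 0.549 (161 counts in the tail, 315 in the head) and 0.0550 (24 and 477). Against 24 hpf LRP8 fell in the tail (log2 change -2.81, adjusted p = 7.90e-04) and rose in the head (1.4, adjusted p = 0.00273). Over the yolk uptake and processing list, 14 of 36 tested genes were higher and 12 lower in the tail, or 38.9% and 33.3% against 25.6% and 27.5% of all genes. In the head 9 were higher and 14 lower, or 25% and 38.9% against 32.2% and 30.4%. The yolk-cleaving protease cathepsin D, ctsd, fell in both, from 339 ± 57.6 CPM to 159 in the tail and 109 in the head. Between the adult parts ctsd had 1417 counts in the tail and 1041 in the head. Further apart were the list's cathepsin genes ctsl.1 (1904 and 6 counts) and ctsbb (599 and 7). The genes ctsba (4889 and 873) and ctsl1a (6107 and 1406) also had more in the tail, and CTSZ fewer (19 and 78). Against 24 hpf ctsl1a fell in the tail (log2 change -1.36, adjusted p = 0.00933) and in the head (-3.58, adjusted p = 2.65e-04). The list's largest decrease in the tail included ctsl1b, a protease gene of the hatching gland, at 1054 ± 396 CPM at 24 hpf and 0 counts in both adult parts.

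Lipoprotein genes, which include relatives of vitellogenin, moved in both directions. Of 28 tested, 4 were higher and 15 lower in the head, or 14.3% and 53.6% against 32.2% and 30.4% of all genes. In the tail 6 were higher and 10 lower, or 21.4% and 35.7%, near the 25.6% and 27.5% of all genes. The apolipoprotein B gene apobl had 4983 ± 2329 CPM at 24 hpf (SD, n = 3), 4070 in the pool and 4428 in the larva. In the head it had 636 CPM and in the tail 3357. The microsomal transfer protein gene mtp, which loads lipid onto apolipoprotein B and belongs to the same large lipid transfer protein family as vitellogenin, stood at 9.99 ± 3.61, 22.1, 27.6, 3.77 and 17.5 CPM in that order of groups. A second ID, named mtp in the 24 hpf files and MTTP (2 of 2) in the others, stood at 32.7 ± 20.3, 33.7, 34.8, 5.03 and 28.5 CPM. These lipoprotein genes were thus well measured in embryo libraries that held few vitellogenin counts. The yolk syncytial layer, the embryonic tissue that digests yolk, was also looked up by its markers, of which 0 of 14 tested were higher and 9 lower in the tail, and 0 and 11 in the head, where 27.5% and 30.4% of all genes were lower.

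The genes whose profile lay nearest to each vitellogenin were sought among 21468 genes over the 5 groups, or 22393 over 4 libraries for the 3 not listed at 24 hpf. The measure was the Euclidean distance between profiles of log2(CPM + 1) after subtracting each gene's mean, where 0 is an identical shape. Over the 4 libraries vtg4 and vtg5 were the closest pair of members, at 0.37. Each of the 7 lay nearer to another vitellogenin than to any other gene, most narrowly vtg7, with vtg3 at 1.07 and its chromosome 22 neighbour si:rp71-23d18.2 at 1.14. The gene si:ch211-240l19.8 was among the 5 nearest for all 7, with 0 counts in every 24 hpf sample and the pool, 59.3 CPM in the head and 1063 in the tail. Its tail to head ratio was 17.9, outside the range of the vitellogenins. Others included the troponin gene tnni2a.3, the alcohol dehydrogenase gene adh8a, the adult globin gene hbaa1 and iclp1, which share a low embryo and a high adult level. Their tail to head ratios were 1.19, 1.95, 0.309 and 0.240 in that order, all below the range of the vitellogenins. For si:rp71-23d18.2 the ratio was 2.98, within it. A nearest gene need not be close, as the 5 nearest to vtg2 lay at 5.32 to 5.88.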

How the data were processed

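The vitellogenin genes and the gene lists were chosen with earlier results of these data known. The authors deposited raw read counts per gene, made with HTSeq 0.5.3p3, and FPKM per gene, made with Cufflinks 1.3.0 per the file headers. Reads had been processed with CASAVA 1.4, TopHat 1.4.1 and Bowtie 0.12.7 on Zv9, per the submitters' processing notes. Settings, annotation release and strandedness were not given in the sources used here. HTSeq's counters for reads on no gene (6.59 to 13.7% of a library), ambiguous reads (0.733 to 1.90%) and reads without a unique alignment (14.2 to 39.6%, highest in the tail) were left out. Reads shared by near-identical or overlapping vitellogenin genes are left out by such counting, so the levels of single members are uncertain.

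Files came for 7 of 16 sample records; the 9 others are further records of the same 24 hpf samples and were not used here. The 24 hpf files list 28491 gene IDs and the other files 32313, of which 28364 are shared, so annotation, depth and stage cannot be told apart in comparisons with 24 hpf.

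Shared genes were tested on the counts with edgeR 4.0.16 in R 4.3.3, with TMM factors, filterByExpr at a minimum count of 10 and 1 quasi-likelihood model with 5 groups, which has 2 residual degrees of freedom. The script was tested on simulated data. SE is the log2 change divided by the square root of the test's F. Ratios between single libraries have exact 95% counting intervals, which cover counting error only and no replicate error, and a count of 0 was given an upper limit of 3 counts. Alternatives were DESeq2 1.42.0, limma-voom 3.58.1, other scalings, no filter on low counts, the pool joined to 24 hpf, and leaving out each 24 hpf sample. Genes outside the family were named by rule: from each list the 3 tested genes with the largest change in the tail among those called and the 2 highest in the tail, a set of yolk pathway and marker genes, and the 5 genes nearest in profile to each member. Not every gene that the rule names is printed.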

Additional observations from a re-analysis of the deposited data

Results flagged for a closer look

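Counts lay on genes beside the chromosome 22 cluster that the name rule leaves out and no comparison above tests. The gene si:rp71-23d18.2 (ENSDARG00000093425), inside the span of vtg4, had 919 counts in the head library and 2555 in that of the tail, with 1 count in the larva and 0 in the pool. The gene si:dkey-4c23.3 (ENSDARG00000092028), which a table of gene names calls vtg8, had 26 counts in the head library and 51 in that of the tail, and 0 in larva and pool. Both are absent from the list of IDs shared with 24 hpf, so neither has a test. In CPM si:rp71-23d18.2 stood at 96.4 and 287 in these adult parts, below all 7 vitellogenins. No group of 4 or more samples exists, so no sample was screened as lying far from the others of its group.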

How the results depend on the processing

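No paired analysis was possible because only the 24 hpf group has more than 1 sample. In head and tail all 4 shared genes stayed called higher under every fit run. In the pool 0 were called higher in any fit, and the count called lower was 0, but 1 (vtg4) with DESeq2 and 0 to 1 when each 24 hpf sample was left out. In the larva 1 was called higher, but 2 with DESeq2, 2 with scaling by library totals, and 1 to 2 when each 24 hpf sample was left out, and the count called lower was then 0 to 1. Directions turned for si:rp71-23d18.1 in the pool with limma-voom, at 0.92, and for vtg4 summed with its span, at 0.072 in the pool and 2.01 in the larva. The cause was not tested. Over all genes the pool comparison was unsteady: 1386 higher and 1279 lower became 0 and 3 with limma-voom and 71 to 2205 and 73 to 2620 without 1 sample, with 747 lower by library totals. With the pool joined to 24 hpf, the larva had 2713 higher and 1086 lower (5601 and 5052 before; 3174 lower by library totals), the head 3518 lower (6427) and the tail 3506 and 3165 (5415 and 5812). Tail over head ratios of the 7 genes were 2.61 to 3.78 by totals over all listed genes without TMM factors. This alternative was chosen after seeing the data, as were the summed cluster, the FPKM ratios and library sizes over all listed genes. With a pseudocount of 0.1, 1 to 3 of the 5 genes nearest each member were kept. Embryo and larva values rest on 0 to 151 counts per gene and library, which limits every order among them.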

Other observations

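Genes of the gut were also read in the adult parts. Of 14 tested intestine markers, 9 were called higher than 24 hpf and 3 lower in the tail by edgeR's quasi-likelihood test, and 7 higher and 4 lower in the head, against 25.6% and 27.5% of all genes in the tail and 32.2% and 30.4% in the head. The list summed to 515 CPM in the head and 2373 in the tail, a ratio of 4.61, which lies above those of the 7 vitellogenins. The chitinase gene chia.3 stood at 209 CPM in the head and 953 in the tail, and the bile acid binding protein gene fabp6 at 3.98 and 191. The gonad genes gsdf, which is on both the oocyte and the testis list, and insl3, on the testis list, were called higher than 24 hpf in the tail. The gene gsdf, a gonadal growth factor of fish, stood at 2.31 CPM in the head and 29.7 in the tail, and insl3 at 0.105 and 6.07.

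The hepatic lipase gene lipc had 2.03 CPM in the larva against 14.5 and 35.2 in head and tail, a tail to head ratio of 2.43 (95% counting interval 1.98 to 2.99). Apolipoprotein C4, listed as zgc:193682, stood at 3.25 and 9.78 CPM in head and tail, a ratio of 3.01 (1.98 to 4.69), whose interval overlaps those of vtg1, vtg2, vtg3, vtg4, vtg5, vtg7 and si:rp71-23d18.1.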
